A study of Rattus norvegicus with 8 samples.

Results

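The genes described here code for the peroxisomal fatty acid oxidation pathway of the liver and for a fatty acid carrier of the same regulatory group. They comprise the thiolases Acaa1b and Acaa1a, the oxidase Acox2, the bifunctional enzymes Ehhadh and Hsd17b4, the carnitine transferase Crot, the auxiliary enzymes Ech1 and Decr2, and the fatty acid binding protein Fabp1. The 9 genes were chosen by name, and every non-control probe set of the array annotated to 1 of them was taken. This gave 14 probe sets of 8740, which covered 8 of the 9 genes with probe sets of their own. Acaa1a was represented only by a probe set annotated to Acaa1b and Acaa1a together. Livers came from male Fischer 344 rats on AIN 76A chow, with an age label of 6 and no unit, and total RNA of 8 liver samples was run on 8 Affymetrix rat expression arrays. The labels describe each sample as the liver of a treated rat without stating that the 4 of a group came from different rats, so the p-values measure the spread between these samples. In the treated group (4 arrays) rats were gavaged with D3T, a dithiolethione that induces detoxification enzymes, at 0.3 mmol/kg in saturated sucrose, once per day on days 1, 3 and 5. Rats of the other group (4 arrays) were given only 0.2 ml of the saturated sucrose, and the dosing days are not recorded for vehicle replicate 2.

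Peroxisomes shorten very long and branched fatty acids by a cycle of oxidation, hydration, dehydrogenation and thiolytic cleavage, and pass the shortened products on to mitochondria. In rodent liver the genes of this cycle are classical targets of PPARalpha, a nuclear receptor that is activated by fatty acids and by fibrate drugs and binds DNA together with a retinoid X receptor. Rats carry a pair of thiolase genes, of which Acaa1b is known as the form strongly induced by peroxisome proliferators and Acaa1a as the more constitutive form. The question put to the data was whether Acaa1b moved with the other peroxisomal genes after D3T.

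Acaa1b was 3.98-fold higher after D3T, and its rise exceeded the change of each of 7 other genes on the same arrays. None of those 7 passed the limma test by its brightest probe set (highest mean log2 signal over all arrays), and Acox2 alone of them had an unadjusted p under 0.05. Of all 3150 genes tested this way, 9.56% were called. The second probe set of Crot was 2.60-fold lower. Of the 14 probe sets, 2 rose, 1 fell and 11 did not pass, where 10.7% of the 5244 probe sets tested were called, 4.2% higher and 6.48% lower. All 14 were bright enough to enter the test, and none had an array at the signal floor of 20.3. The groups of arrays did not overlap for 5 of the 14, against 19.2% of all probe sets tested. D3T lay above for 3 (7.89% of all) and below for 2 (11.3% of all). The median log2 fold change of the 14 was -0.12, beside 0.02 over all probe sets tested. Fold changes are ratios of geometric mean signals, D3T over vehicle, the test is limma with p-values adjusted over all 5244 probe sets by Benjamini-Hochberg, and a probe set passed at an adjusted p under 0.05. In bulk liver RNA, fewer cells of a type and less RNA per cell cannot be told apart.

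**Figure D1:**
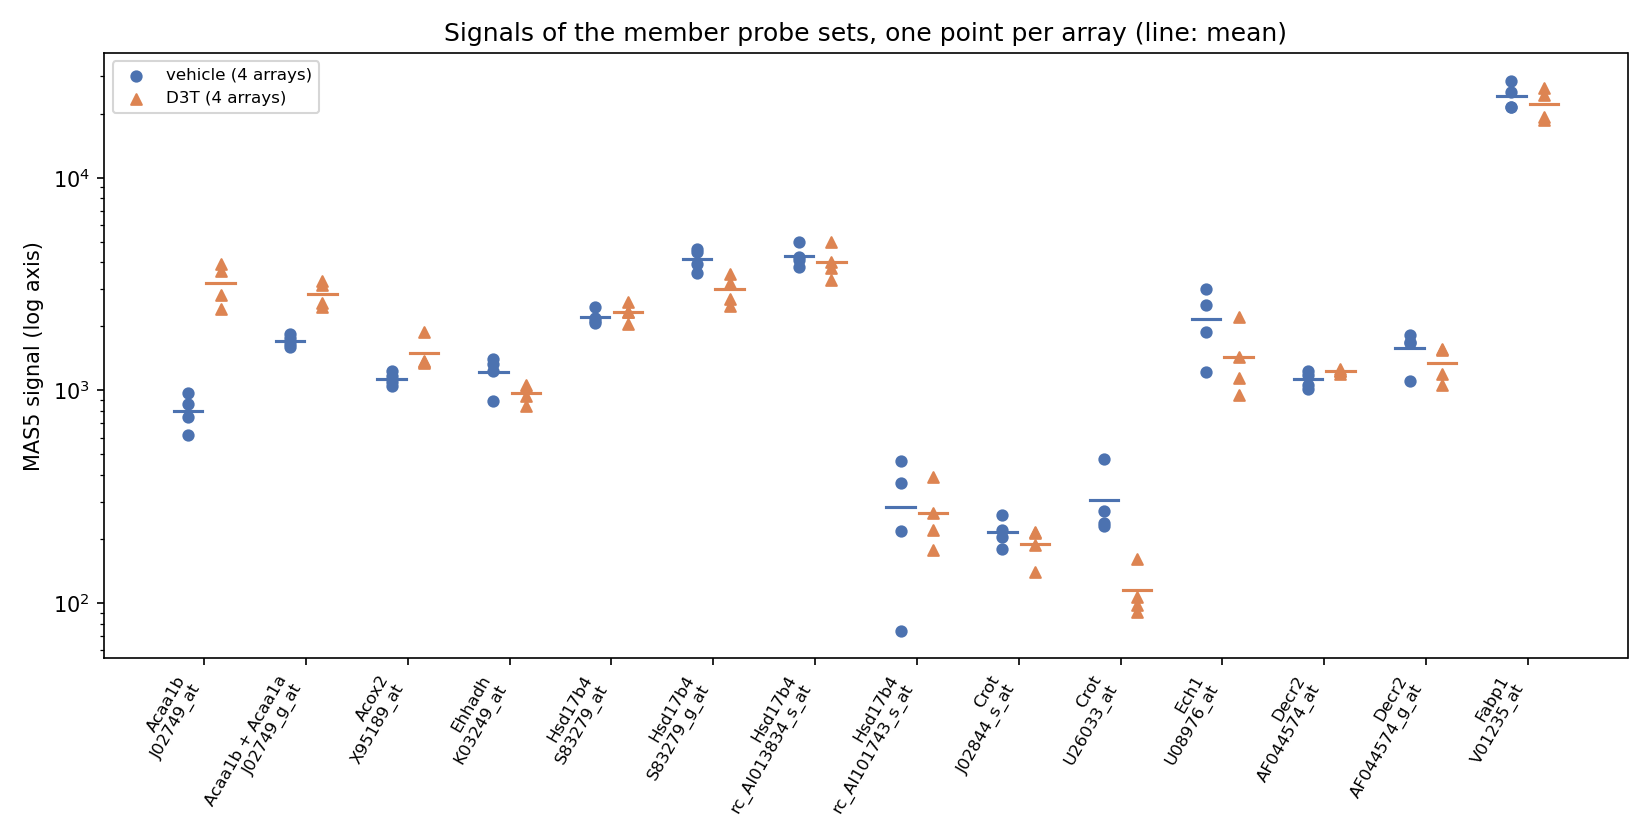
Deposited MAS5 signal (log axis) of the 14 probe sets on each of 4 vehicle arrays (circles) and 4 D3T arrays (triangles), with lines at the group means. Acaa1b separates the groups most widely, from at most 968.0 in vehicle to at least 2402.0 after D3T, and Fabp1 is the brightest in both groups.

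Acaa1b, the inducible thiolase that makes the final cut of the cycle, had vehicle signals of 968.0, 750.1, 864.2 and 615.4 in replicates 1 to 4. After D3T they were 2810.0, 2402.0, 3647.2 and 3930.4. Every D3T array lay above every vehicle array, with the lowest D3T signal more than 2-fold above the highest vehicle signal. Means were 799.4 ± 151.6 (SD, n = 4) and 3197 ± 712.4 (SD, n = 4), and the log2 fold change was 1.99 ± 0.19 (SE), with a limma adjusted p of 0.000183 and a 95% interval of 2.98- to 5.31-fold. By size of rise, Acaa1b ranked 8 among the 3150 genes tested by their brightest probe set. Its call held in all 8 fits that each left out 1 array, with adjusted p from 0.000274 to 0.00100.

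The probe set annotated to both thiolases rose less. Its signals were 1835.1, 1605.2, 1645.0 and 1758.2 in vehicle and 2474.2, 2566.7, 3256.2 and 3116.8 after D3T, again without overlap. The log2 fold change was 0.73 ± 0.12 (SE), or 1.66-fold, with a limma adjusted p of 0.00624. The rise of the Acaa1b probe set exceeded that of the joint one by 1.26 on the log2 scale (95% interval 0.86 to 1.67). The log2 ratio of these probe sets was higher on each of the 4 D3T arrays than on any vehicle array. Its exact permutation p of 0.0286 (two-sided, 70 assignments, 4 against 4) is the smallest the design allows. The comparison was added after both changes had been seen. No value for Acaa1a alone can be given, because the joint signal cannot be divided between the genes.

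Promoters are shown for the thiolase that rose, for its copy and for Fabp1, so that the window of the gene that rose can be read beside that of a gene that did not pass. They run from 250 bases before to 50 bases after the gene's start, 5′ to 3′ on the gene's strand, from RefSeq on the rat build GRCr8. Capitals mark matches to the PPAR element or to a single unit of it, searched on both strands. Acaa1b lies on the minus strand (chr8:127759520-127759819), Acaa1a on the plus strand (chr8:127957231-127957530) and Fabp1 on the plus strand (chr4:104749090-104749389).

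Acaa1b: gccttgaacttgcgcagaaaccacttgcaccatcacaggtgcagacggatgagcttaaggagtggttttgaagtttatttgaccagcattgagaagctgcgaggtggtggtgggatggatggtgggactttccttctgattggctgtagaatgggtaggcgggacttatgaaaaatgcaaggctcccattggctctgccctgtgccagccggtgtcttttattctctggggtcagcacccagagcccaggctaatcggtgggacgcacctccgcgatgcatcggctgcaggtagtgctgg

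Acaa1a: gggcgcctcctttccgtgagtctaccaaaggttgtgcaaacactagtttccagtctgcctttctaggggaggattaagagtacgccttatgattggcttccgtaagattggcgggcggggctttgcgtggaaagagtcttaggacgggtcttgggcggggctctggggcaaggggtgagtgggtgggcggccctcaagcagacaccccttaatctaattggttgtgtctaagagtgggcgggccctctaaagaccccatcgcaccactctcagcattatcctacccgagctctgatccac

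Fabp1: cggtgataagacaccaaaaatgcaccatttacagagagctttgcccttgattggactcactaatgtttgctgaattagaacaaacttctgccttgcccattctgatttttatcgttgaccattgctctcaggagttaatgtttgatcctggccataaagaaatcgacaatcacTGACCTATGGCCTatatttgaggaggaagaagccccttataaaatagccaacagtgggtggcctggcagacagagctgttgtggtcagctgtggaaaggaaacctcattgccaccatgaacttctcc

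The motifs were the hexamer AGGTCA, that hexamer repeated in the same direction after any 1 base (the PPAR element), and TGACNNNGC (the core of the element bound by Nfe2l2, the transcription factor of the detoxification response). Promoters were found for 8 of the 9 genes, all but Ech1. Over 33469 rat promoters, 16.2% held the hexamer, 0.0538% the exact repeat, 3.77% the repeat with up to 2 differences and 12.1% the Nfe2l2 core. Of the 8 promoters, Fabp1 held the repeat with 1 difference, from 77 to 65 bases before the start (a single hexamer match there overlaps it), and Hsd17b4 held the hexamer from 56 to 51 bases before the start. The windows of Acaa1b, Acaa1a, Acox2, Ehhadh, Crot and Decr2 held none of these letters. The Acaa1b and Acaa1a windows were identical at 56.3% of 268 aligned bases. A match or its lack in these windows describes the letters only.

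The oxidase Acox2, which opens the cycle for bile acid intermediates, was somewhat higher after D3T without passing. Vehicle signals were 1097.5, 1047.9, 1162.8 and 1227.8, and D3T signals 1348.0, 1885.3, 1364.0 and 1379.6. The groups did not overlap, and D3T replicate 2 stood well above the other D3T arrays. The log2 fold change was 0.39 ± 0.14 (SE), or 1.31-fold, with an adjusted p of 0.0967 in limma and a 95% interval of 1.06- to 1.61-fold before adjustment for multiple testing.

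The bifunctional enzymes carry out hydration and dehydrogenation, Ehhadh for the straight chains that peroxisome proliferators favour and Hsd17b4 for branched and very long chains and bile acid intermediates. Ehhadh had vehicle signals of 1227.2, 893.9, 1328.6 and 1406.7 and D3T signals of 840.2, 941.5, 1058.0 and 1040.3. Vehicle replicate 2 lay among the D3T arrays, and the other 3 vehicle arrays were above all of them. The log2 fold change was -0.31 ± 0.16 (SE) with a limma adjusted p of 0.227. Without vehicle replicate 2 it was -0.45 (adjusted p = 0.0526).

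Hsd17b4 had 4 probe sets, none of which passed. Their log2 fold changes were 0.07, -0.48, -0.10 and 0.14. For the probe set at -0.48, vehicle signals were 4619.9, 3548.4, 4456.3 and 3940.3 and D3T signals 2502.6, 3206.2, 3541.4 and 2703.0, without overlap (limma adjusted p = 0.0534). Another probe set of the same transcript read 2130.7, 2191.5, 2082.9 and 2460.3 in vehicle and 2047.2, 2345.8, 2592.1 and 2333.7 after D3T, with overlap throughout. The ratio of these probe sets was lower on all 4 D3T arrays than on any vehicle array, on average by 0.55 on the log2 scale, with an exact permutation p of 0.0286 and 0.0857 after adjustment over 3 such probe set pairs, which were chosen after their values were seen. The dimmest probe set ranged from 74.1 to 466.6 within the vehicle group alone, and its 95% interval ran from 0.514- to 2.36-fold.

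Crot, which turns shortened acyl-CoA into carnitine esters that leave the peroxisome, gave unequal readings. One probe set had vehicle signals of 270.6, 231.5, 237.9 and 476.8 and D3T signals of 107.2, 91.1, 161.8 and 98.2. All D3T arrays lay below all vehicle arrays, and vehicle replicate 4 was the highest. The log2 fold change was -1.38 ± 0.28 (SE), or 2.60-fold lower, with a limma adjusted p of 0.0147. The other probe set, whose name marks sequence shared with other transcripts, read 179.3, 220.5, 205.1 and 258.4 in vehicle and 212.8, 186.9, 140.5 and 216.5 after D3T, with overlap. It changed by -0.20 ± 0.21 (SE) on the log2 scale (limma adjusted p = 0.547). This probe set stood for Crot because its mean log2 signal over the 8 arrays was the higher, but in vehicle it was the dimmer (means of 215.8 and 304.2), so the absence of a call for the gene rests on that choice. The mean of both probe sets passed, with a log2 fold change of -0.79 (limma adjusted p = 0.0332). The probe sets differed in their change by 1.18 on the log2 scale, with an exact permutation p of 0.0571 (two-sided, 4 against 4, adjusted over the 3 pairs 0.0857). The lower call held in all 8 fits without 1 array (adjusted p from 0.0130 to 0.0398), but not without the filter on low signals (adjusted p = 0.0580).

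The auxiliary enzymes Ech1, a dienoyl-CoA isomerase, and Decr2, a dienoyl-CoA reductase, prepare unsaturated fatty acids for the cycle. Ech1 signals were 2524.1, 1226.5, 1883.8 and 2995.2 in vehicle and 948.7, 1436.9, 2206.0 and 1143.7 after D3T. The groups overlapped widely, with vehicle replicate 2 low and D3T replicate 3 high. The log2 fold change was -0.59 ± 0.30 (SE) with a limma adjusted p of 0.225, and its 95% interval ran from -1.26 to 0.08. Decr2 was steady by its first probe set, with means of 1127 ± 102.3 (SD, n = 4) for vehicle and 1228 ± 29.0 for D3T (0.13 on the log2 scale, limma adjusted p = 0.471, 95% interval 0.919- to 1.30-fold). By the second probe set it was 1575 ± 315.6 and 1344 ± 255.6 (-0.22 on the log2 scale, limma adjusted p = 0.446), with overlapping arrays for both.

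Fabp1, the liver fatty acid binding protein that carries ligands to PPARalpha and is itself a target of it, was bright on every array. Vehicle signals were 21457.7, 28652.6, 21602.9 and 25414.0, and D3T signals 19402.0, 24480.4, 26288.1 and 18646.9. The groups overlapped, and the log2 fold change was -0.13 ± 0.15 (SE, limma adjusted p = 0.557), with a 95% interval of 0.729- to 1.14-fold. A rise like that of Acaa1b is outside this interval. Under quantile normalization, which reshapes the brightest signals, Fabp1 was lower by 0.42 on the log2 scale and passed (adjusted p = 0.0192).

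**Figure D2:**
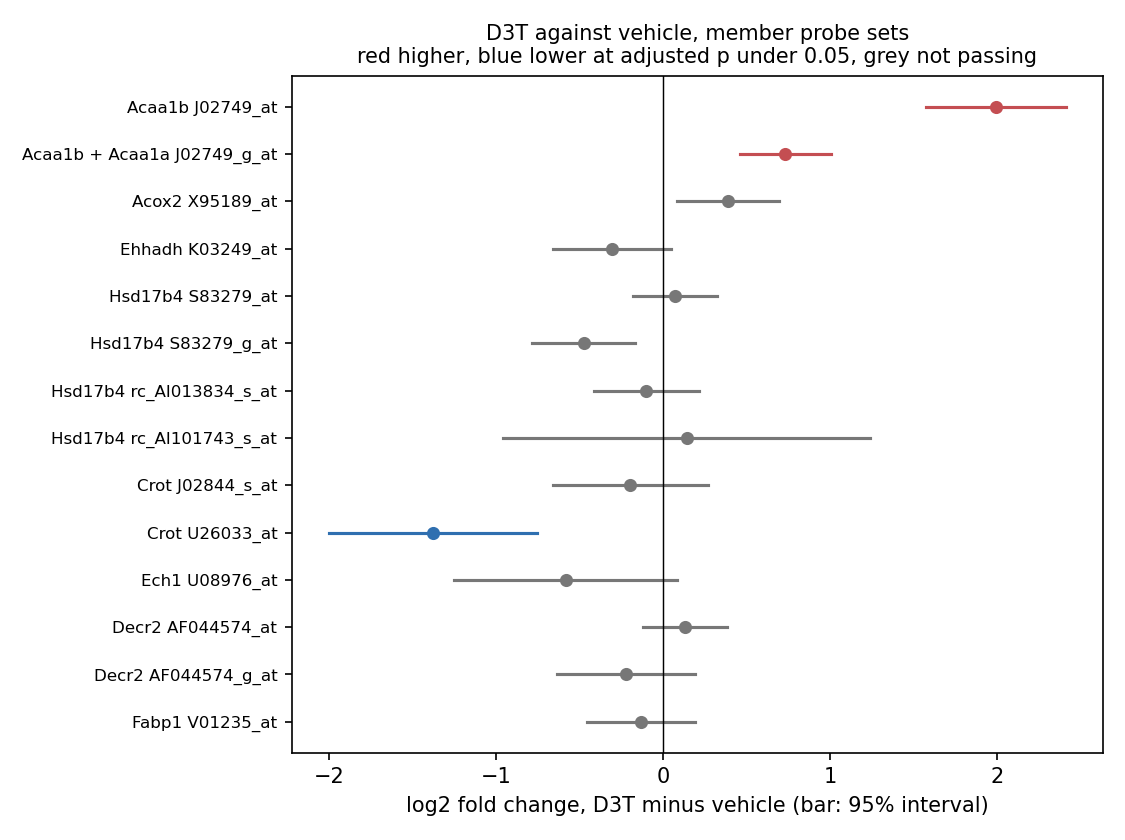
Log2 fold change, D3T minus vehicle, of each of the 14 probe sets with its 95% interval from limma. Acaa1b (1.99) and the joint thiolase probe set (0.73) are higher, 1 Crot probe set (-1.38) is lower, and the 11 grey ones did not pass.

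To compare Acaa1b directly with the rest, the log2 ratio of its signal to the brightest probe set of each other gene was taken per array. In all 7 pairs the 4 D3T arrays lay above the 4 vehicle arrays. The ratio rose by 1.61 on the log2 scale against Acox2 (95% interval 0.84 to 2.38), which was the smallest difference. Against Ech1 it rose by 2.58 (1.52 to 3.64), the largest of the 7. The other differences were 2.30 against Ehhadh, 2.09 against Hsd17b4, 2.19 against Crot, 2.22 against Decr2 and 2.13 against Fabp1. Against the other Crot probe set, outside these 7 and added after the data were seen, it was larger still, at 3.37 (2.39 to 4.35). Each of the 7 had an exact permutation p of 0.0286 (two-sided, 4 against 4 arrays, and 0.0286 adjusted over the 7 pairs), the smallest possible with 70 assignments. Acaa1b is common to all 7 ratios, so they are not separate tests, and it was compared with its large rise already known. Leaving out any 1 array kept every difference positive, between 1.45 and 2.80.

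**Figure D3:**
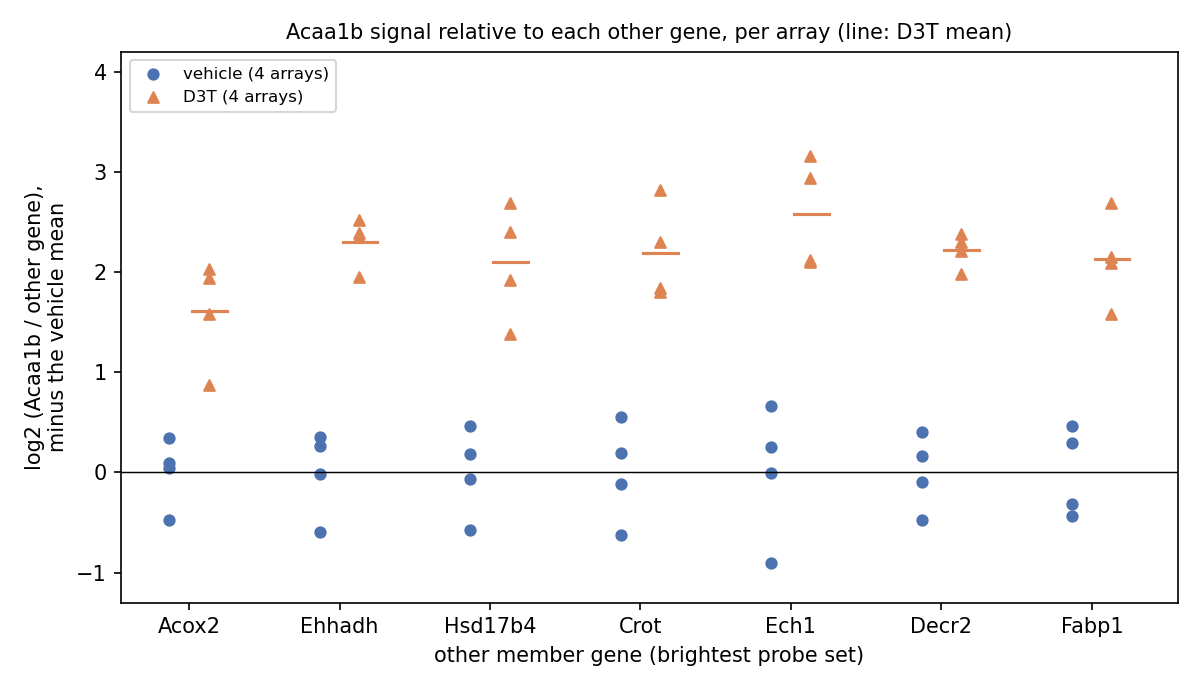
Log2 ratio of Acaa1b to each of the 7 other genes, minus its vehicle mean, on 4 vehicle arrays (circles) and 4 D3T arrays (triangles), with lines at the D3T mean. The D3T arrays lie above the vehicle arrays in every column, with mean shifts from 1.61 for Acox2 to 2.58 for Ech1.

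The genes whose signals followed Acaa1b most closely over the 8 arrays, by Pearson's r of log2 signals, were Akr7a3 (r = 0.988), Gstp1 (0.985), Aldh1a1 (0.981), Avpr2 (0.981) and Ctxn1 (0.979). Akr7a3 is an aflatoxin aldehyde reductase, Gstp1 a glutathione transferase and Aldh1a1 a retinaldehyde dehydrogenase. For the other genes of the group, r with Acaa1b ran from -0.55 for Ehhadh to 0.65 for Acox2, while the joint thiolase probe set had 0.967. These values describe 8 arrays that fall into 2 groups, so they include the group difference. With the group means removed, r was 0.65 for Ctxn1 to 0.90 for Avpr2 among the most alike genes, which were picked by r on the same arrays. For the other genes of the group it then ran from -0.95 for Hsd17b4 to 0.54 for Decr2, with Acox2 at -0.65 and Ehhadh at 0.20. The joint thiolase probe set had 0.67. Avpr2 rose only 1.43-fold and did not pass (limma adjusted p = 0.0663). As a check of the treatment, Nqo1, a quinone reductase, was 3.44-fold higher and Gstp1 29.9-fold. Both are known targets of Nfe2l2.

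Genes elsewhere in the peroxisome differed in direction. Of 21 further genes of peroxisomal fatty acid oxidation, 7 were measured and tested and none passed with limma by its brightest probe set (1 higher and 3 lower at an unadjusted p under 0.05), where 3.71% of 3150 genes were called higher and 5.84% lower. Their median log2 fold change was -0.21, beside 0.03 over all genes. Amacr, a racemase of branched acyl-CoA named here after its values were seen, was the nearest to passing, with a log2 fold change of -0.75 (limma adjusted p = 0.0548). It passed without D3T replicate 2 or D3T replicate 3. The brightest of the 7, Abcd3, is a peroxisomal membrane transporter of fatty acyl-CoA. Its vehicle signals were 9092.5, 21145.0, 7846.4 and 9797.5, and its D3T signals 19152.0, 19537.7, 18412.5 and 20759.0. Vehicle replicate 2 alone stood above the D3T arrays, and the other 3 vehicle arrays lay far below them. With all arrays the log2 fold change of Abcd3 was 0.82 ± 0.26 (SE, limma adjusted p = 0.0642), and without vehicle replicate 2 it was 1.13 (adjusted p = 0.000488). A second Abcd3 probe set had the same outlying array at 7712.3, against 1228.8 to 2807.7 on the other vehicle arrays and 6852.5 to 8711.7 after D3T. It passed with all arrays (log2 fold change 1.64, limma adjusted p = 0.0467) and without vehicle replicate 2 (2.18, adjusted p = 0.00101), but in none of the fits without 1 of the other arrays (adjusted p from 0.0696 to 0.116).

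Among 20 other peroxisomal enzymes and membrane proteins tested, of 39 listed, 1 rose, 1 fell and 18 did not pass, with a median of -0.06. These counts after adjustment are near the shares of all genes, 3.71% higher and 5.84% lower. Before adjustment more of the 20 moved, with 4 higher and 7 lower at an unadjusted limma p under 0.05. The peroxisomal glutathione transferase gene Gstk1, which acts in peroxisomes and mitochondria, was 1.46-fold higher (limma adjusted p = 0.0471), with overlapping arrays and a second probe set at -0.05. Hao2, a peroxisomal hydroxy acid oxidase, was 1.69-fold lower, from 5672 ± 316.9 (SD, n = 4) to 3446 ± 879.9 (limma adjusted p = 0.0196). Catalase (Cat), the hydrogen peroxide scavenger that defines the organelle, was at 4642 ± 734.0 in vehicle and 4620 ± 477.6 after D3T (limma adjusted p = 0.998, n = 4 each). Its second probe set had a log2 fold change of -0.29 (limma adjusted p = 0.386). Of the 8 fits without 1 array, Gstk1 passed only without replicate 2 of either group (adjusted p up to 0.125 in the others). Hao2 failed without vehicle replicate 1, 3 or 4 or D3T replicate 1 (up to 0.0570).

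Targets of PPARalpha outside the group also moved both ways. Of 33 listed, 22 were tested, of which 2 rose, 3 fell and 17 did not pass, with a median of -0.10. Of all genes, 3.71% were called higher and 5.84% lower. Before adjustment, 2 of the 22 were higher and 5 lower at a limma p under 0.05. The mitochondrial thiolase gene Acaa2 was 1.48-fold higher, with mean signals of 10156 ± 1221 (SD, n = 4) for vehicle and 14978 ± 1296 for D3T and no overlap (limma adjusted p = 0.0157). Gpd1, a glycerol phosphate dehydrogenase, was 1.52-fold higher with overlapping arrays (limma adjusted p = 0.0471). The fatty acid hydroxylase gene Cyp4a1, a sensitive PPARalpha target in rat, went from 2968 ± 591.4 to 1770 ± 353.6 by its brightest probe set (limma adjusted p = 0.0274, n = 4 each). Its other probe sets, at 0.15 and -0.09 on the log2 scale, did not pass. The mitochondrial acyl-CoA dehydrogenase genes Acadl and Acadvl were 1.49-fold and 1.46-fold lower (limma adjusted p = 0.0471 and 0.0343). Cpt1a, the gate of mitochondrial fatty acid entry, had a log2 fold change of -0.28 ± 0.13 (SE) and did not pass (limma adjusted p = 0.171). Of these 5 calls, Acaa2 alone held in all 8 fits without 1 array (adjusted p up to 0.0495), but not with no intensity trend (adjusted p = 0.0540). Cyp4a1 failed without vehicle replicate 1, 3 or 4 or D3T replicate 1 (up to 0.0714), Acadl and Acadvl passed only without replicate 2 of either group (up to 0.116 and 0.0951 in the others), and Gpd1 only without vehicle replicate 2 (up to 0.110).

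Of the receptors themselves, Ppara had low vehicle signals of 128.3, 184.1, 141.3 and 128.0 and D3T signals of 204.3, 209.3, 195.6 and 184.7. The highest vehicle array lay just under the lowest D3T array, and the log2 fold change of 0.46 ± 0.20 (SE) did not pass (limma adjusted p = 0.149). Of 9 receptor and coregulator genes tested, 3 rose and none fell with limma (4 and 1 at an unadjusted p under 0.05), beside 3.71% and 5.84% of all genes, and the median was 0.46. Rxra and Rxrb, genes of retinoid X receptors that pair with PPARalpha, were 5.55-fold and 1.55-fold higher (limma adjusted p = 0.00725 and 0.0343). Rxra signals were 39.5 to 222.6 in vehicle and 438.3 to 688.6 after D3T, with a 95% interval of 2.87- to 10.75-fold. Its call held in all 8 fits without 1 array but not without the filter on low signals (adjusted p = 0.0528). Rxrb passed in 1 of the 8, without vehicle replicate 2 (adjusted p up to 0.0863 in the others). Hnf4a, a master regulator of hepatocyte genes, was 1.41-fold higher by its brightest probe set (limma adjusted p = 0.0477). That call was lost whichever array was left out, with the adjusted p reaching 0.116. Its other probe sets, at 0.72 and 0.35 on the log2 scale, did not pass (limma adjusted p = 0.0765 and 0.373). The one at 0.72 passed without D3T replicate 1 (adjusted p = 0.0334).

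**Figure D4:**
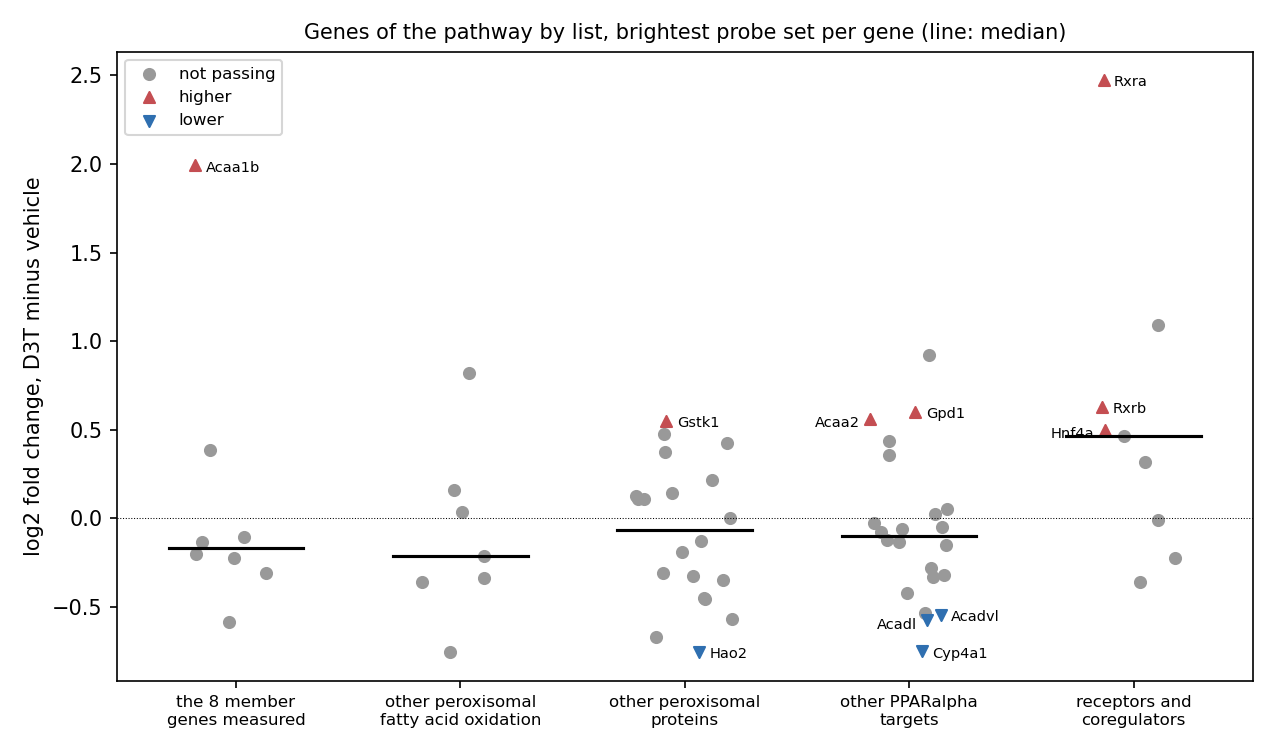
Log2 fold change, D3T minus vehicle, of each gene tested in 5 lists by its brightest probe set, with black lines at the list medians. Acaa1b stands alone near 2 among the 8 genes, whose median is -0.17, while the receptor list has a median of 0.46 with Rxra at 2.47.

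Other measures also moved with the groups. The ratio of the 3′ to the 5′ probe sets of actin, a measure of RNA integrity, was 1.45 to 1.59 in vehicle and 1.17 to 1.47 after D3T (exact permutation p = 0.0571, 4 against 4). The same ratio of GAPDH was 1.695 to 2.178 in vehicle and 1.432 to 2.004 after D3T (exact permutation p = 0.114, 4 against 4). Both ratios overlapped between groups. With the actin ratio as a covariate Acaa1b was still higher (log2 fold change 1.84, limma adjusted p = 0.0319). The joint thiolase probe set (0.78, adjusted p = 0.134) and the Crot probe set (-0.84, adjusted p = 0.385) did not pass, nor did any gene of the other 4 lists. Calls over all probe sets tested fell in that fit too, from 560 to 35. Summed signals of 7 hepatocyte markers were high on all arrays and overlapped between groups (155581 to 234944 in vehicle, 194661 to 272667 after D3T). Those of 7 Kupffer cell and macrophage markers were 5510 to 6775 in vehicle and 3918 to 4745 after D3T, of 4 endothelial markers 1020 to 1291 and 651.3 to 950.5, and of 3 red blood cell markers 11087 to 15476 and 7616 to 10356, each without overlap. Nearly all of the red blood cell sum was Hbb, with means of 12156 in vehicle and 8495 after D3T. Log2 fold changes were -0.51 for Hbb, -0.13 for Alas2 and 0.33 for Slc4a1. By gene with limma, 1 rose and 2 fell of 6 Kupffer markers tested, and 1 fell of 3 endothelial markers. Of 7 hepatocyte markers 1 fell (Fgb, fibrinogen beta chain, log2 fold change -0.80), as did 1 of 6 stellate cell markers (Col3a1, a collagen, -0.90). None of 3 red cell markers passed. Of all genes, 3.71% were called higher and 5.84% lower. At an unadjusted p under 0.05, 2 Kupffer markers were higher and 4 lower. The hepatocyte list had 3 higher and 1 lower, and the stellate cell list 1 higher and 2 lower. Of the endothelial and red cell lists, each had 1 lower and 0 higher. Sums of 8 stellate cell, 3 cholangiocyte and 4 adipocyte markers overlapped, and of all markers measured only the adipocyte gene Fabp4 was at the signal floor on all arrays. The part of RNA integrity and of these cell types in the results above was not tested beyond the covariate fit.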

How the data were processed

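The authors deposited a table of signal intensity on a linear scale for every probe set, made with MAS5 per the submitters' processing notes. The sources used here do not state the MAS5 version or scaling target, and no detection calls were used, but the 2% trimmed means of the arrays, 500.9 to 501.0, show a common scaling. Arrays give no counts, and precision is limited by how many there are. Signals were brought to a trimmed mean of 500 on every array, those under the 20th percentile (20.3) were raised to it, and log2 was taken. The 60% of 8740 non-control probe sets with the highest mean, 5244, were fitted with limma 3.58.1 in R 4.3.3 (intensity trend, no covariate). Signals and their means in the text are as deposited. Gene names came from the platform annotation, with 7006 probe sets matched to 1 symbol, 308 to several and 1426 to none. No gene was named from several symbols except the joint thiolase probe set. Suffixes s, g and i in probe set names mark shared or incomplete sequence. The tested probe set with the highest mean log2 signal stood for a gene.

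The genes and lists were chosen with earlier results of these data known. All probe sets of the genes were named, with list members past the threshold, the brightest where fewer than 2 passed, 5 genes most correlated with Acaa1b, and Cat, Cyp4a1, Cpt1a, Ppara, Rxra, Nqo1 and Gstp1. Single ratios were tested by exact permutation over 70 assignments. In simulated data for D3T against vehicle with 200 of 5244 probe sets changed, 25.4% of 1.5-fold, 56.7% of 2-fold and 86.4% of 4-fold changes were recovered. Same-numbered arrays deviated from their group means with correlations of -0.198 to 0.063. No pairing by number was seen in these values, which cannot exclude one. No protein sequences were used.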

Additional observations from a re-analysis of the deposited data

Results flagged for a closer look

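For single arrays that lie far from the other 3 of their group, 60 groups of 4 were examined on the log2 scale with Dixon's criterion, and 5 stood out, where chance gives about 1 in 20 groups. Acox2 in D3T replicate 2 was 1885.3, above 1348.0 to 1379.6 in the other D3T arrays. The second Decr2 probe set in vehicle replicate 2 was 1110.8, below 1675.8 to 1816.4. Acadvl was 973.5 in vehicle replicate 2, below 1303.4 to 1376.1, and 943.2 in D3T replicate 2, above 808.8 to 827.7. Rxrb in vehicle replicate 3 was 215.7, below 296.9 to 310.4.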

How the results depend on the processing

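Of 648 values recomputed under other settings, 524 kept direction and call, 98 lost the call, or lowered a count of calls by over 1.5 times, 11 gained it and 15 changed sign. The 560 probe sets called became 309 with no filter, 333 with no intensity trend, 290 with the replicate block, 35 with the actin 3′/5′ covariate and 240 to 695 without 1 array. The replicate numbers do not pair the arrays. Acaa2 lost its call with the block (adjusted p = 0.0544). Acaa1b kept its call, and its 7 differences from other genes their direction, under every setting run. With the actin covariate, log2 fold changes were 0.78 for the joint thiolase probe set, -0.84 for the second Crot probe set, 0.062 and -0.25 for the Hsd17b4 probe sets rc_AI013834_s_at and rc_AI101743_s_at, 0.10 for Ech1, 0.17 for Fabp1, -0.23 for Cat and 0.025 for Cpt1a. That Crot probe set also lost its call with no filter (-1.38), and the mean of both Crot probe sets gained one (-0.79). Hsd17b4 by S83279_g_at passed with quantile normalization (-0.47), a floor at the 40th percentile or the brightest 30% (-0.48 each), array weights (-0.56), and without vehicle replicate 2 or D3T replicate 3, within -0.56 to -0.40 without 1 array. Without 1 array, rc_AI101743_s_at ran from -0.40 to 0.48 and Cat from -0.090 to 0.095. Fabp1 passed with quantile normalization (-0.42). Cat was -0.028 with quantile normalization, -0.014 with median centring and -0.050 with array weights. The cause was not tested. With the brightest 30%, rc_AI101743_s_at, both Crot probe sets, Rxra and Ppara were too dim to be tested. The comparisons with the joint thiolase probe set and with the other Crot probe set were added after seeing the data. Low signals limit Crot, Ppara and Rxra.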
